A study of Mus musculus with 6 samples.

Results

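Mice make several enzymes of glucose breakdown from more than 1 gene with well-known tissue preferences, among them hexokinase (Hk1, Hk2, Hk3), phosphofructokinase (Pfkl, Pfkm, Pfkp), pyruvate kinase (Pkm, Pklr) and lactate dehydrogenase (Ldha, Ldhb). The transcripts of these 10 isozyme genes, out of 25938 gene symbols in the deposited table, were compared between sorted mouse bone marrow populations. The genes were chosen by symbol, each was found in a single entry, and all 10 passed the filter on low values. The study collected 3 libraries of CD51+ TNCs and 3 libraries of CD44+CD51- TNCs, numbered 1 to 3 in each group, from enzymatically digested bone marrow of C57BL/6 mice. TNC is the labels' own term and is not spelled out there, the series title speaks of stromal and haematopoietic TNCs, and neither age nor treatment is given. CD51 is integrin αV and CD44 is a receptor for hyaluronan, so that the groups are defined by surface proteins and not by genotype. Each library is a bulk RNA sample of many cells, in which fewer cells of a type and less RNA per cell cannot be told apart.

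Isozymes catalyse the same reaction but differ in how they are controlled. Hexokinase traps glucose in the cell as a phosphate, phosphofructokinase makes the committing step of the pathway, pyruvate kinase releases its final ATP, and lactate dehydrogenase interconverts pyruvate and lactate. Lactate dehydrogenase is a tetramer of A and B subunits in any mixture. The A subunit favours lactate formation, and the B subunit, abundant in heart, favours its use. Pyruvate kinase of muscle type comes from Pkm, whose M1 and M2 forms arise by the choice between mutually exclusive exons, and red cells and liver use Pklr, which has a start site for each of those tissues. Gene-level values do not separate the M1 and M2 forms of Pkm or the red cell and liver forms of Pklr.

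The start regions of Pklr, Ldha and Ldhb are shown because Ldhb rose and Pklr fell by the most of the 10 genes, and Ldha is the partner subunit of Ldhb. Each sequence is the 250 bases before a RefSeq transcript start (GRCm38.p6), 5′ to 3′ on the gene's strand. Capitals mark 4 short motifs searched on both strands: AGATAA, a core bound by GATA factors such as the red cell regulator GATA1, CACCC, a core bound by Krüppel-like factors such as KLF1, and ACGTG and GCGTG, the cores of the element bound by hypoxia-inducible factors.
Pklr, upstream start, chr3:89135892-89136141, plus strand: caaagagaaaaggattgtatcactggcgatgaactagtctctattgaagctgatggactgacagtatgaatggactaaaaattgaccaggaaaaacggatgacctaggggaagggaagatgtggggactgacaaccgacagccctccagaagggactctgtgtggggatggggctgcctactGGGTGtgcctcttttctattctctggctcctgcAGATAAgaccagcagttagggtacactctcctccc
Pklr, downstream start, chr3:89136373-89136622, plus strand: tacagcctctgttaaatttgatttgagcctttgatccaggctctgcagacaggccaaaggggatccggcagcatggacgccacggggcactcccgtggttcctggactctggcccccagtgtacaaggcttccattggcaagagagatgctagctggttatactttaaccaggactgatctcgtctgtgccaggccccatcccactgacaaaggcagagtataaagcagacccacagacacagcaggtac
Ldha, upstream start, chr7:46845554-46845803, plus strand: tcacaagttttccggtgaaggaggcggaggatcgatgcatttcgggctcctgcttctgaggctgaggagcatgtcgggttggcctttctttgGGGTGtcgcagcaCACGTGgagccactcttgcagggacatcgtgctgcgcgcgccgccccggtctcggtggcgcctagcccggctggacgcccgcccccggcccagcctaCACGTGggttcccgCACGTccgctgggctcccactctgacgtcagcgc
Ldha, downstream start, chr7:46846832-46847081, plus strand: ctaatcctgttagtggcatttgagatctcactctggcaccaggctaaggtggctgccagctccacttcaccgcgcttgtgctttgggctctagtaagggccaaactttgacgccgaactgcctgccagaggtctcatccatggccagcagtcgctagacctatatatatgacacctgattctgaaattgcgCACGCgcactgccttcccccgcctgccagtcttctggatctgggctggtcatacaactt
Ldhb, chr6:142507958-142508207, minus strand: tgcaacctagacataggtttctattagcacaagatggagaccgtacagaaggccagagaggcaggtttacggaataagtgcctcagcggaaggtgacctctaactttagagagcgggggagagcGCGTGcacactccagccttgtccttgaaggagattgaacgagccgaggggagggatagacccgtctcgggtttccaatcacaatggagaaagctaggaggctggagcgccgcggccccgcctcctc
The upstream Pklr window held 1 AGATAA and 1 CACCC, and the downstream window held no match to any of the 4 motifs. The upstream Ldha window held 1 CACCC and 5 matches to ACGTG, counted by strand, because CACGTG reads the same on both strands and so holds the core once on each. The downstream Ldha window held no ACGTG and 1 GCGTG. The Ldhb window held 1 match to GCGTG and none to ACGTG. Among 32851 windows of the same length in the RefSeq table, AGATAA was present in 9.99%, CACCC in 52.0%, ACGTG in 16.6% and GCGTG in 28.2%. All 10 genes had at least 1 window, 17 windows in all, of which AGATAA was present in 4, CACCC in 9, ACGTG in 6 and GCGTG in 7. The 4 windows with AGATAA belonged to Pklr and Pfkm, and 3 of them, of Pfkm, include a pair that overlaps. A match describes these letters only.

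Values below are RPKM, read counts scaled by the authors to gene length in kilobases and to sequencing depth. They can therefore be set against each other between genes, as far as the gene lengths used fit the transcripts present. Means are given ± SD with n = 3 per group, and log2 changes are differences of mean log2(RPKM + 1), CD51+ less CD44+CD51-, with their standard error (SE), tested with limma over all 11741 genes that reached 1 RPKM in at least 3 libraries. The library size behind the RPKM, estimated from the steps between low values, was 12194769 to 32486890 reads in CD51+ libraries and 19292694 to 25584117 reads in CD44+CD51- libraries. At that depth the smallest value among the 10 genes, of Hk2 in CD44+CD51- library 1, corresponds to about 97.8 reads. Itgav, the gene of CD51, averaged 7.01 ± 2.43 RPKM in CD51+ cells and 0.677 ± 0.244 RPKM in CD44+CD51- cells. Cd44 averaged 31.5 ± 2.98 RPKM in CD51+ cells and 34.8 ± 2.57 RPKM in CD44+CD51- cells and was not called (limma adjusted p = 0.401). Ptprc, which encodes the leukocyte antigen CD45, averaged 6.87 ± 0.643 RPKM in CD51+ cells and 3.25 ± 1.28 RPKM in CD44+CD51- cells (limma adjusted p = 0.0122). Summed markers of mesenchymal stromal cells ran from 11337 to 15779 RPKM in CD51+ libraries and from 5.01 to 42.5 RPKM in CD44+CD51- libraries, of which number 2 was the highest. CD51+ libraries also held markers of other cells. All 12 neutrophil lineage markers were called higher in them, with sums of 85829 to 88900 RPKM against 5936 to 28915 RPKM, and so were all 11 monocyte and macrophage markers, with sums of 5165 to 8237 RPKM against 641 to 1883 RPKM. The count of 12 was 8 under quantile normalization and 10 with no filter on low values or without CD44+CD51- replicate 3. B lineage markers went the other way, with 7 of 8 tested called lower and sums of 64.3 to 119 RPKM in CD51+ libraries and 255 to 756 RPKM in CD44+CD51- libraries. No marker of these 4 lists was at 0 in any library, and CD44+CD51- library 2 had the highest sum of its group in each list. All 8 osteolineage markers were called higher in CD51+ libraries, with sums of 18694 to 24646 RPKM against 21.9 to 110 RPKM. All 5 adipocyte markers tested were called higher too, with list sums of 309 to 779 RPKM against 1.22 to 7.82 RPKM. Of these, Runx2, Sp7, Fabp4 and Pparg passed the filter only through the CD51+ libraries. Over all genes tested, 24.1% were called higher in CD51+ cells and 29.7% lower. The part that the makeup of the sorted cells played in the results below was not tested.

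In each of the 4 enzymes at least 1 isozyme gene was higher and at least 1 was lower in CD51+ cells. The higher genes were Hk2, Hk3, Pfkp, Pkm and Ldhb, and the lower ones were Hk1, Pfkl, Pfkm, Pklr and Ldha. All 10 passed the limma test, 5 in each direction, where 53.7% of all genes tested were called, 24.1% as higher and 29.7% as lower. The values of the groups did not overlap for any of the 10, which held for 63.6% of all genes tested, 26.1% with CD51+ higher and 37.5% with CD51+ lower. The median log2 change over all genes tested was -0.23, so a fall of a small size is close to that of the table as a whole. The 5 rises were called in each of 12 alternative settings, except that of Pfkp. Of the 5 falls, those of Pklr and Pfkm were called in all 12, and those of Hk1, Ldha and Pfkl lost their call in 2, 6 and 8 of them.

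**Figure D1:**
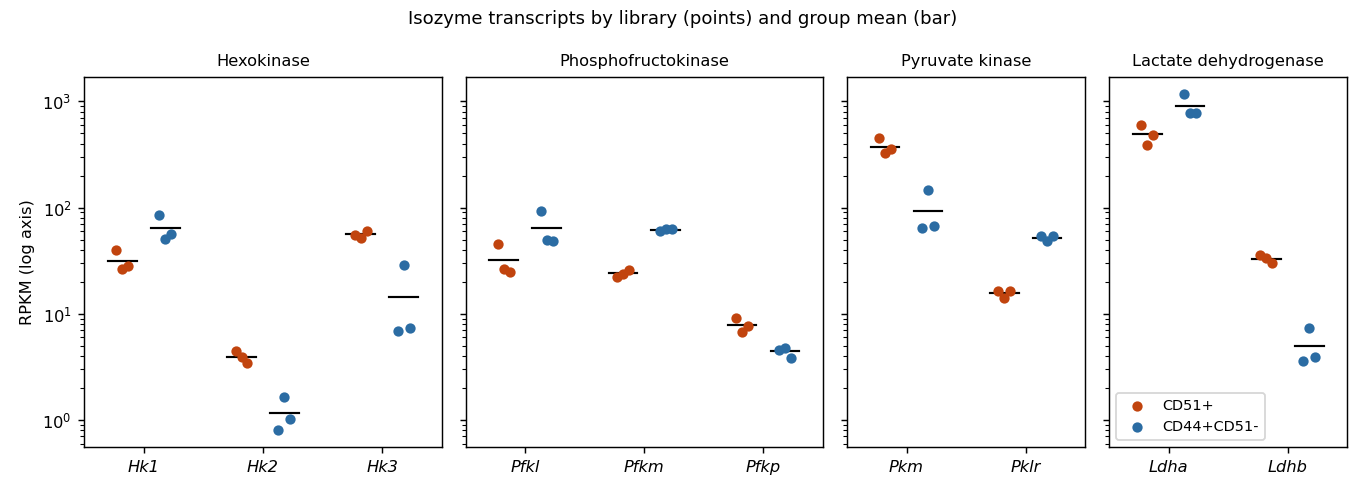
RPKM (log axis) of the 10 isozyme genes in 3 CD51+ and 3 CD44+CD51- libraries, 1 point per library in the order 1 to 3 and a bar at the group mean. Within every enzyme the points of one isozyme lie higher in CD51+ libraries while those of another lie lower, as with Ldhb (29.9 to 35.6 against 3.58 to 7.29) and Ldha (391 to 605 against 780.4 to 1175).

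Hexokinase changed in makeup while its summed transcript level stayed close. Hk1 (chromosome 10, 62268855 to 62379908, minus strand), the isozyme of brain and red cells that sits on mitochondria, fell in CD51+ cells. It was at 40.0, 26.7 and 28.4 RPKM in CD51+ libraries 1 to 3, against 85.4, 50.7 and 55.9 RPKM in CD44+CD51- libraries 1 to 3. The library numbered 1 was the highest of each group, and the groups did not overlap. The log2 change was -0.98 ± 0.25 SE (limma adjusted p = 0.0142). The call was lost without CD51+ replicate 2 (adjusted p = 0.0558) and under median-ratio scaling (0.0629), in a range of 0.000315 to 0.0629 over 12 alternatives.

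Hk3 (chromosome 13, 55005985 to 55021385, minus strand), an isozyme found mainly in white blood cells, rose. It was at 55.8, 51.5 and 60.2 RPKM in CD51+ libraries, against 6.87, 29.0 and 7.40 RPKM in CD44+CD51- libraries. CD44+CD51- library 2 stood far above the others of its group and still below every CD51+ library. The mean of CD44+CD51- cells, 14.4 ± 12.6 RPKM, became 7.13 RPKM without that library. The log2 change was 2.17 ± 0.49 SE (limma adjusted p = 0.00916). Hk2 (chromosome 6, 82725025 to 82774454, minus strand), the inducible isozyme of muscle and fat, was the least abundant of the 10 genes in both groups and rose as well. It was at 4.42, 3.93 and 3.44 RPKM in CD51+ libraries, against 0.803, 1.65 and 1.031 RPKM in CD44+CD51- libraries (log2 change 1.204 ± 0.19 SE, limma adjusted p = 0.00190).

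The summed hexokinase level was 91.4 ± 9.09 RPKM in CD51+ cells and 79.6 ± 14.5 RPKM in CD44+CD51- cells, a ratio of 1.15 with overlapping groups (exact permutation p = 0.4, two-sided). Hk3 made up 61.3 ± 5.03% of it in CD51+ cells and 18.2 ± 15.3% in CD44+CD51- cells. Hk1 made up 34.4 ± 4.83% in CD51+ cells and 80.3 ± 15.8% in CD44+CD51- cells. Hk2 held 4.31 ± 0.531% in CD51+ cells and 1.498 ± 0.590% in CD44+CD51- cells. None of these 3 shares overlapped between the groups (exact permutation p = 0.1 for each, two-sided, the smallest that 3 libraries against 3 can give). The ratio of Hk1 to Hk3 was 0.718, 0.518 and 0.472 in CD51+ libraries, against 12.4, 1.75 and 7.55 in CD44+CD51- libraries. Hk3 was thus above Hk1 in every CD51+ library and below it in every CD44+CD51- library. Which of them led in CD51+ cells depended on gene length. With the values rescaled to the length of the main transcript of each gene, Hk1 came to 50.4% in CD51+ cells and 88.2% in CD44+CD51- cells, and Hk3 to 46.5% in CD51+ cells and 10.95% in CD44+CD51- cells. The summed hexokinase level was not compared at these lengths.

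**Figure D2:**
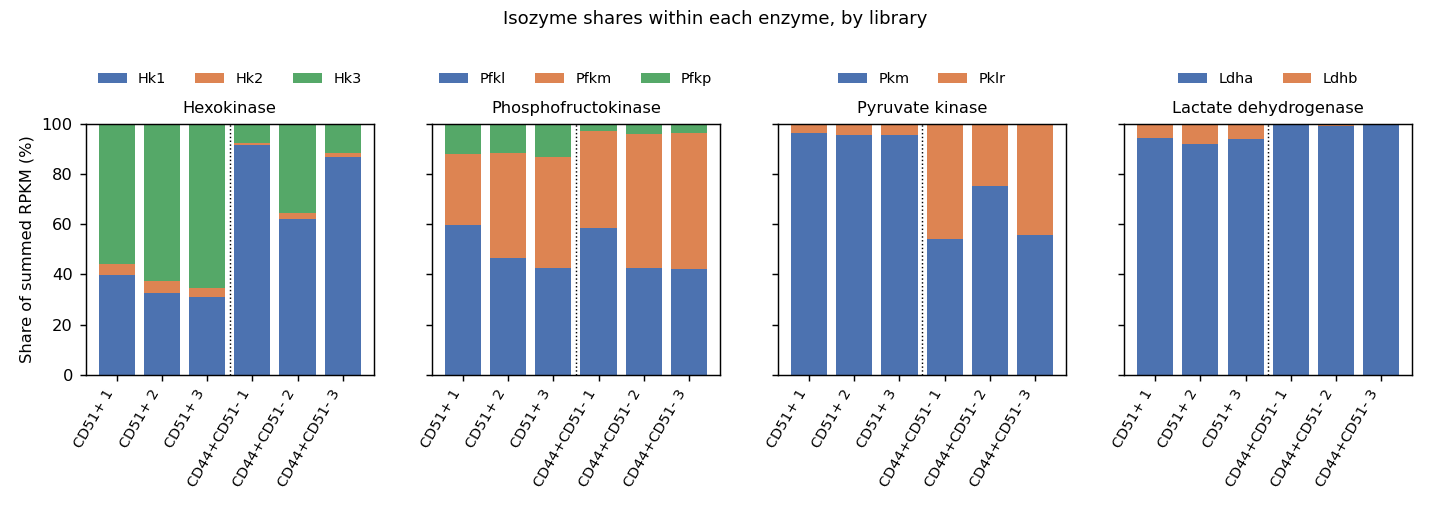
Share of each isozyme in the summed RPKM of its enzyme (percent), stacked to the whole, for 3 CD51+ libraries left of the dotted line and 3 CD44+CD51- libraries right of it. Pklr takes 3.50 to 4.45% in CD51+ libraries and 24.8 to 45.8% in CD44+CD51- libraries, and the Pfkl share follows the library number more than the group.

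Phosphofructokinase fell as a whole, and its rarest isozyme rose. Pfkm (chromosome 15, 98092589 to 98132451, plus strand), the muscle isozyme, which in humans is also a subunit of the red cell enzyme, fell with little spread within either group. It was at 22.04, 23.9 and 26.1 RPKM in CD51+ libraries, against 60.8, 62.2 and 62.7 RPKM in CD44+CD51- libraries. The log2 change was -1.33 ± 0.13 SE (limma adjusted p = 0.000234). Of 7 skeletal muscle markers, Myh1, Myh4, Tnnt3 and Myod1 were at 0 in all 6 libraries. Mylpf, a fast muscle light chain gene and the only one of them tested, was called lower, but not with no filter on low values or without CD51+ replicate 1 or 2 or CD44+CD51- replicate 2 or 3. Acta1 and Ckm were at most 0.114 and 0.101 RPKM in any library. The marker sums, nearly all Mylpf, were 6.52 to 16.4 RPKM in CD51+ libraries and 17.1 to 29.9 RPKM in CD44+CD51- libraries. Their part in the Pfkm result was not tested.

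Pfkl (chromosome 10, 77986947 to 78010083, minus strand), the liver isozyme, was at 45.7, 26.6 and 24.9 RPKM in CD51+ libraries, against 92.9, 49.6 and 48.9 RPKM in CD44+CD51- libraries. As with Hk1, the library numbered 1 was the highest of each group. Its log2 change of -0.94 ± 0.33 SE was only just called (limma adjusted p = 0.0450). The adjusted p ran from 0.000349, with the replicate number as a block, to 0.139, under median-ratio scaling. The call was lost without CD51+ replicate 2 or 3 or without any 1 of the CD44+CD51- libraries. Pfkp (chromosome 13, 6579768 to 6648777, minus strand), the platelet isozyme, was at 9.03, 6.71 and 7.59 RPKM in CD51+ libraries, against 4.602, 4.79 and 3.88 RPKM in CD44+CD51- libraries (log2 change 0.69 ± 0.16 SE, limma adjusted p = 0.0107). Under quantile normalization its adjusted p was 0.0517, the highest of its alternatives, which began at 0.00408. None of the 7 megakaryocyte markers was called by limma, and 0 had an unadjusted p under 0.05, while 2 were called lower without CD51+ replicate 3 and 1 with the replicate number as a block. Their sums were 149, 120 and 2373 RPKM in CD51+ libraries and 237, 250 and 1008 RPKM in CD44+CD51- libraries, so that the library numbered 3 stood far above the others in both groups. Their part in the Pfkp result was not tested.

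Summed phosphofructokinase was 64.2 ± 10.9 RPKM in CD51+ cells and 130.1 ± 24.4 RPKM in CD44+CD51- cells, a ratio of 0.493 (exact permutation p = 0.1, two-sided, the smallest possible here). The Pfkp share was 11.8, 11.7 and 13.0% in CD51+ libraries, against 2.91, 4.10 and 3.36% in CD44+CD51- libraries. At main transcript lengths it was 22.8% in CD51+ cells and 7.31% in CD44+CD51- cells. The shares of the other members overlapped between the groups. Pfkl held 59.5, 46.5 and 42.5% in CD51+ libraries and 58.7, 42.5 and 42.3% in CD44+CD51- libraries, which differ less between groups than between library 1 and the others (exact permutation p = 0.6, two-sided). Pfkm held 28.7, 41.7 and 44.5% in CD51+ libraries and 38.4, 53.3 and 54.3% in CD44+CD51- libraries (exact permutation p = 0.3, two-sided). Pfkm was lower in the CD51+ library of each number, although the groups overlapped.

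In pyruvate kinase Pkm rose and Pklr fell. Pklr (chromosome 3, 89136142 to 89146784, plus strand), whose human counterpart is mutated in a hereditary haemolytic anaemia, fell to 16.3, 14.1 and 16.4 RPKM in CD51+ libraries, against 53.9, 48.5 and 53.5 RPKM in CD44+CD51- libraries. The values hardly varied within a group, and the log2 change was -1.67 ± 0.13 SE (limma adjusted p = 8.98e-05). Pkm (chromosome 9, 59656368 to 59679375, plus strand) was at 449, 324 and 353 RPKM in CD51+ libraries, against 63.9, 147 and 67.4 RPKM in CD44+CD51- libraries. CD44+CD51- library 2 was the highest of its group, as it was for Hk3, Hk2 and Ldhb. The log2 change of Pkm was 2.10 ± 0.34 SE (limma adjusted p = 0.00227).

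Pkm exceeded Pklr in every library, by 27.6, 22.9 and 21.5 times in CD51+ libraries and by 1.18, 3.03 and 1.26 times in CD44+CD51- libraries. Pklr thus held 4.04 ± 0.490% of pyruvate kinase transcripts in CD51+ cells and 38.3 ± 11.7% in CD44+CD51- cells (exact permutation p = 0.1, two-sided, the smallest possible here). At main transcript lengths the Pklr share was 2.23% in CD51+ cells and 25.6% in CD44+CD51- cells. Summed pyruvate kinase was 391 ± 66.1 RPKM in CD51+ cells and 145 ± 43.9 RPKM in CD44+CD51- cells, a ratio of 2.70 (exact permutation p = 0.1, two-sided). Among erythroid markers, the regulator genes Klf1 and Gata1 were lower like Pklr, while Hbb-bs, Hba-a1 and Alas2 were higher. Klf1 averaged 260.1 ± 41.1 RPKM in CD51+ cells and 750.2 ± 103 RPKM in CD44+CD51- cells. Hbb-bs averaged 3551 ± 634 RPKM in CD51+ cells and 735 ± 736 RPKM in CD44+CD51- cells. Alas2 averaged 108 ± 19.9 RPKM in CD51+ cells and 29.1 ± 27.0 RPKM in CD44+CD51- cells. Of 12 erythroid markers 6 were lower, 3 were higher and 3 were not called. The 3 higher became 1 without CD51+ replicate 3 or CD44+CD51- replicate 3, and with the replicate number as a block 7 were lower and 4 higher. The sums of these markers, 7481 to 11870 RPKM in CD51+ libraries and 9583 to 13014 RPKM in CD44+CD51- libraries, overlapped. The part of these cells in the Pklr result was not tested.

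Lactate dehydrogenase transcripts were almost wholly Ldha in both groups, and Ldhb, the rarer subunit, rose by the most of the 10 genes. Ldhb (chromosome 6, 142490249 to 142507957, minus strand) was at 35.6, 33.5 and 29.9 RPKM in CD51+ libraries, against 3.58, 7.29 and 3.92 RPKM in CD44+CD51- libraries. The ratio of the group means was 6.69 and the log2 change 2.57 ± 0.24 SE (limma adjusted p = 0.000231). Ldha (chromosome 7, 46841475 to 46855627, plus strand), the most abundant of the 10 genes by its mean in each group, was at 605, 391 and 486 RPKM in CD51+ libraries, against 1175, 783 and 780.4 RPKM in CD44+CD51- libraries. Its log2 change was -0.88 ± 0.27 SE (limma adjusted p = 0.0285). Without CD51+ replicate 2 or 3, without CD44+CD51- replicate 1 or 3, with no filter on low values and under median-ratio scaling the call was lost, with adjusted p between 0.0570 and 0.109, and the lowest adjusted p of any alternative was 0.00304.

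Ldhb held 5.56, 7.89 and 5.79% of lactate dehydrogenase transcripts in CD51+ libraries, against 0.304, 0.923 and 0.4998% in CD44+CD51- libraries. At main transcript lengths its share was 4.22% in CD51+ cells and 0.371% in CD44+CD51- cells. The ratio of Ldha to Ldhb was 17.0, 11.7 and 16.3 in CD51+ libraries, against 328, 107 and 199 in CD44+CD51- libraries. The shares did not overlap (exact permutation p = 0.1, two-sided, the smallest possible here). Summed lactate dehydrogenase was 527 ± 108 RPKM in CD51+ cells and 918 ± 226 RPKM in CD44+CD51- cells, a ratio of 0.574 (exact permutation p = 0.1, two-sided). Ldhc, the testis subunit, averaged 1.23 ± 0.658 RPKM in CD51+ cells and 0.388 ± 0.218 RPKM in CD44+CD51- cells, and Ldhd, which acts on D-lactate, averaged 0.449 ± 0.354 RPKM in CD51+ cells and 0.555 ± 0.314 RPKM in CD44+CD51- cells. Both were under the filter, and Ldhal6b was not analysed here. Over the 8 shares and 4 sums tested by permutation, the 9 at the smallest possible p had a Benjamini-Hochberg adjusted p of 0.133.

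The order of levels within a group also differed. In CD51+ cells Ldha and Pkm led with overlapping values, followed by Hk3. Ldhb, Pfkl and Hk1 came next, at means of 33.004, 32.4 and 31.7 RPKM, and overlapped. Pfkm, Pklr, Pfkp and Hk2 came after them in that order, each apart from its neighbour. In CD44+CD51- cells Ldha stood alone at 913 ± 227 RPKM. Pkm overlapped with Hk1, Hk1 with Pfkl and Pfkl with Pfkm, at means of 92.7, 64.0, 63.8 and 61.9 RPKM. Pklr followed at 52.0 ± 3.02 RPKM, apart from Pfkm. Hk3 overlapped with Ldhb and Ldhb with Pfkp, and Hk2 was the lowest. These overlaps are between neighbours in the order only. Genes farther apart in it can overlap, as Pklr and Hk1 did in CD44+CD51- cells and Pfkm and Pfkl in CD51+ cells.

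The steps of glycolysis that do not rest on these isozyme families changed less evenly. Of 14 genes listed for the other steps, 9 were tested, of which 3 were higher, 1 was lower and 5 were not called. Of all genes tested, 24.1% were higher and 29.7% lower. The median log2 change was -0.02, beside -0.23 over all genes tested. Pgam1, the phosphoglycerate mutase of most tissues, rose to 39.2 ± 6.38 RPKM in CD51+ cells, against 16.6 ± 6.27 RPKM in CD44+CD51- cells (log2 change 1.23, limma adjusted p = 0.00701). Pgam2, its muscle form, rose by a log2 change of 1.497 (limma adjusted p = 0.00499). Gpi1, glucose-6-phosphate isomerase, rose by 0.87 (limma adjusted p = 0.0163), a call lost without CD44+CD51- replicate 3 (0.0599), in a range of 0.00640 to 0.0599. Tpi1, triose-phosphate isomerase, fell by 0.65 on the log2 scale (limma adjusted p = 0.0254), a call lost without CD51+ replicate 2 (0.0690) or CD44+CD51- replicate 2 (0.0796) or 3 (0.0865), in a range of 0.00449 to 0.0865.

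Aldoa, Gapdh, Pgk1, Eno1 and Eno3 were not called. Aldoa, the main aldolase, averaged 177 ± 28.4 RPKM in CD51+ cells and 185 ± 45.0 RPKM in CD44+CD51- cells, with a 95% interval of the log2 change from -0.56 to 0.48. Gapdh averaged 233 ± 48.2 RPKM in CD51+ cells and 277 ± 22.4 RPKM in CD44+CD51- cells (interval -0.74 to 0.21). The direction of Aldoa, Pgk1 and Eno3 turned with the scaling. Gapdh, Ldha, Pgk1, Pgam1 and Eno1 have processed copies in the genome, so that the assignment of some of their reads is uncertain. The enolases and aldolases each had one dominant gene in both groups. Eno1 held 92.0 ± 2.03% of enolase transcripts in CD51+ cells and 91.4 ± 0.761% in CD44+CD51- cells, with overlapping groups. Aldoa held 99.3 ± 0.633% of aldolase transcripts in CD51+ cells and 99.9 ± 0.0612% in CD44+CD51- cells, without overlap. Pgam2 held 9.49 ± 3.37% of phosphoglycerate mutase transcripts in CD51+ cells and 4.71 ± 2.51% in CD44+CD51- cells, with overlapping groups (exact permutation p = 0.2, two-sided).

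**Figure D3:**
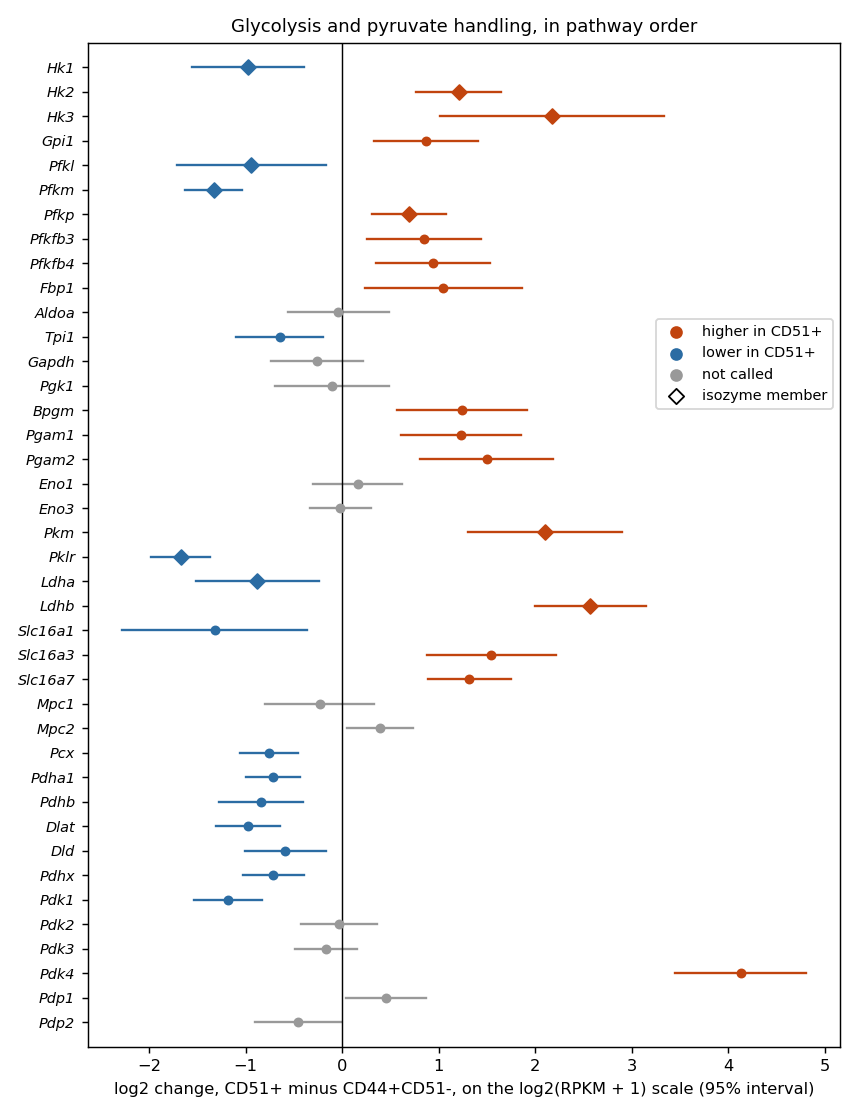
Log2 change (CD51+ minus CD44+CD51-, log2(RPKM + 1) scale) with its 95% interval for the tested genes of glycolysis and pyruvate handling in pathway order, the isozyme genes as diamonds. Isozymes of one enzyme lie on both sides of 0, such as Pkm at 2.10 and Pklr at -1.67. Of the other glycolytic steps, Aldoa, Gapdh, Pgk1, Eno1 and Eno3 have intervals that include 0, and Gpi1, Tpi1, Pgam1 and Pgam2 do not.

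Genes that set the activity of phosphofructokinase, and the red cell shunt, rose where they could be tested. Of 8 such genes 4 passed the filter and all 4 were higher, beside 24.1% of all genes tested. Under the filter, Pfkfb1 averaged 0.303 RPKM in CD51+ cells and 0.502 RPKM in CD44+CD51- cells. Pfkfb2 averaged 0.264 RPKM in CD51+ cells and 0.462 RPKM in CD44+CD51- cells. Both were lower in CD51+ cells without overlap, and Tigar, also under the filter, was higher without overlap. Bpgm, which makes the red cell regulator 2,3-bisphosphoglycerate, averaged 28.3 ± 8.80 RPKM in CD51+ cells and 11.4 ± 3.65 RPKM in CD44+CD51- cells (log2 change 1.24, limma adjusted p = 0.00969). Pfkfb4 and Fbp1, which make an activator of phosphofructokinase and reverse its step, rose by log2 changes of 0.94 and 1.05 (limma adjusted p = 0.0172 and 0.0374). The call of Pfkfb4 was lost without CD44+CD51- replicate 3 (0.0597), in a range of 0.00190 to 0.0597. Fbp1 lost its call in 7 of 12 alternatives, with adjusted p from 0.00272 to 0.111. The count of 4 became 2 without CD51+ replicate 1 or 2 or CD44+CD51- replicate 1, and 1 without CD44+CD51- replicate 3. It was also 2 under quantile normalization and with no filter on low values. The fourth, Pfkfb3, was named after its value was seen (log2 change 0.84, limma adjusted p = 0.0258), and lost its call in 6 of 12 alternatives, with adjusted p from 0.00222 to 0.215.

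Among 17 genes of pyruvate and lactate fate, all of them tested, 8 were lower and 3 higher. Of all genes tested, 29.7% were lower and 24.1% higher. With the replicate number as a block 9 were lower and 5 higher, and under median-ratio scaling 6 and 5. The median log2 change was -0.46, beside -0.23 over all genes tested. All 5 listed subunit genes of the pyruvate dehydrogenase complex, which carries pyruvate into the citric acid cycle, were called lower, a grouping made after the values were seen. The call of Dld, the smallest fall of them, was lost in 5 of 12 alternatives, under median-ratio scaling (0.0564), quantile normalization (0.0788) and without CD51+ replicate 2 (0.0766) or CD44+CD51- replicate 2 (0.0796) or 3 (0.0807). Dlat, its acetyltransferase, was at 25.2 ± 3.02 RPKM in CD51+ cells and 50.4 ± 3.27 RPKM in CD44+CD51- cells (log2 change -0.98, limma adjusted p = 0.00151). Of the kinases that switch the complex off, Pdk4 and Pdk1 moved apart. Pdk2 and Pdk3, named after their values were seen, were not called (limma adjusted p = 0.879 and 0.326). Pdk3, the most abundant of them by its mean in each group, averaged 57.7 RPKM in CD51+ cells and 65.1 RPKM in CD44+CD51- cells. Pdk4 was at 28.0, 13.8 and 13.0 RPKM in CD51+ libraries, against 0, 0.134 and 0 RPKM in CD44+CD51- libraries (log2 change 4.13). Pdk1 averaged 6.69 ± 0.984 RPKM in CD51+ cells and 16.4 ± 0.781 RPKM in CD44+CD51- cells (log2 change -1.19, limma adjusted p = 0.000847). The monocarboxylate carriers that move lactate across the membrane also moved apart. Slc16a3, which encodes the export-adapted carrier MCT4, averaged 12.3 ± 3.99 RPKM in CD51+ cells and 3.55 ± 1.12 RPKM in CD44+CD51- cells (log2 change 1.54, limma adjusted p = 0.00388). Slc16a7, which encodes MCT2, rose by 1.32 on the log2 scale. The 3 higher genes include Pdk4 and Slc16a7, which passed the filter only through the CD51+ libraries and so could hardly have been called lower. Slc16a1, which encodes MCT1, averaged 92.2 ± 30.01 RPKM in CD51+ cells and 248 ± 143 RPKM in CD44+CD51- cells (log2 change -1.32, limma adjusted p = 0.0292). The call of Slc16a1 was lost in 5 of 12 alternatives, without CD51+ replicate 2 (0.0975) or 3 (0.0868) among them, in a range of 0.000383 to 0.0975. Without CD44+CD51- library 1 the mean of that group was 165 RPKM.

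Of 6 genes listed as regulators of Pkm splicing 5 were tested, 3 were lower and none was higher, beside 29.7% and 24.1% of all genes tested. Ptbp1, which represses the M1 exon, averaged 65.7 ± 9.02 RPKM in CD51+ cells and 132 ± 20.1 RPKM in CD44+CD51- cells (log2 change -0.99, limma adjusted p = 0.00383). Srsf3 and Hnrnpa2b1 fell by 0.76 and 0.68 on the log2 scale (limma adjusted p = 0.0230 and 0.0174). The count of 3 became 1 without CD51+ replicate 2 or CD44+CD51- replicate 3, and 2 without CD44+CD51- replicate 2. It was 4 without CD51+ replicate 1 and with the replicate number as a block, where Hnrnpa1, named after its value was seen, was called as well. Hnrnpa1 had a log2 change of -1.35, with an adjusted p of 0.0536 without the block and 0.000333 with it, in a range up to 0.161 over its alternatives. Of 13 genes of the hypoxia response 12 were tested, of which 9 were higher and none lower by limma, beside 24.1% and 29.7% of all genes tested, and 0 were lower at an unadjusted p under 0.05. The 9 include Epas1 and Adm, which passed the filter only through the CD51+ libraries and so could hardly have been called lower. Ankrd37, the gene that did not pass it, averaged 0.542 ± 0.167 RPKM in CD51+ cells and 1.16 ± 0.518 RPKM in CD44+CD51- cells, without overlap. Epas1, which encodes the hypoxia factor HIF-2α, averaged 12.3 ± 2.84 RPKM in CD51+ cells and 0.142 ± 0.222 RPKM in CD44+CD51- cells (log2 change 3.54). P4ha1, a collagen prolyl hydroxylase subunit, rose by 2.48 (limma adjusted p = 0.000212). Ddit4, an inhibitor of mTORC1 signalling, rose by 2.26 (limma adjusted p = 0.0163), a call lost without CD51+ replicate 2 (0.0608) or 3 (0.0595), in a range of 6.53e-06 to 0.0608.

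The genes with the most similar profiles over the 6 libraries were found for the member of each enzyme with the largest log2 change, by the root mean square distance of centred log2(RPKM + 1) values. For Hk3 these were Trem3, Fcgr3, Elane, Ltb4r1 and Cebpe, at distances of 0.120 to 0.160. Elane encodes the neutrophil elastase of primary granules and Cebpe a factor of granulocyte maturation, and both were on the neutrophil marker list. For Pkm they were Alox5, Rogdi, Cldn15, Tmem154 and Fes (0.0603 to 0.109), of which Alox5 encodes the 5-lipoxygenase of leukotriene synthesis. For Ldhb they were AA467197, Cnn2, Tgfbi, Naglu and Slc31a2 (0.0633 to 0.121). For Pfkm they were Mthfd1l, Pola2, Timeless, Nsun5 and Slc38a1 (0.0460 to 0.0657), of which Pola2 encodes a subunit of the DNA polymerase that primes replication. With 6 libraries in 2 groups such likeness is mostly that of the group difference, and it is given as a description.

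**Figure D4:**
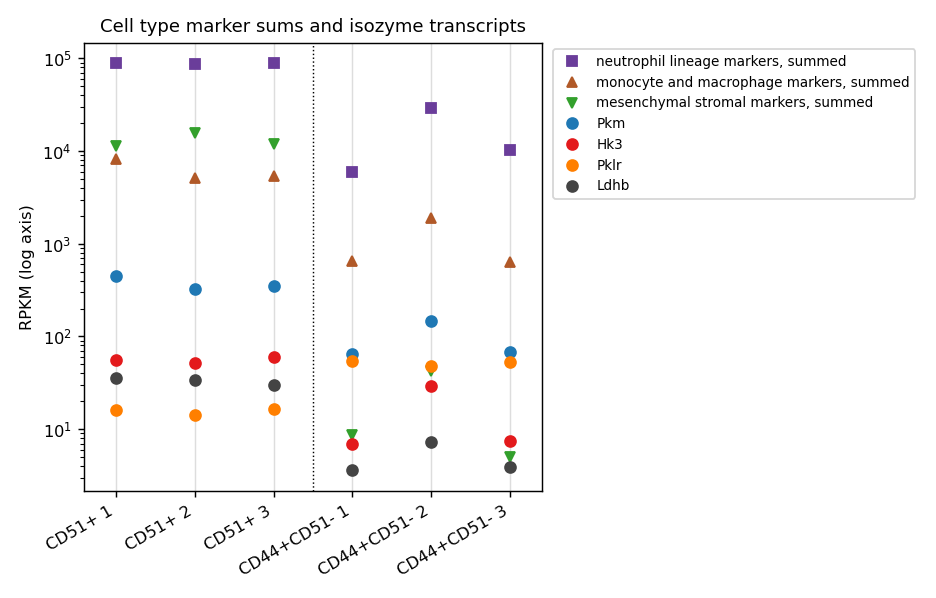
RPKM (log axis) in 3 CD51+ libraries left of the dotted line and 3 CD44+CD51- libraries right of it, for the summed markers of neutrophil lineage, monocytes and macrophages, and mesenchymal stromal cells, and for Pkm, Hk3, Pklr and Ldhb. In CD44+CD51- library 2 the 3 marker sums, Hk3 (29.0 RPKM), Pkm (147 RPKM) and Ldhb (7.29 RPKM) are the highest of the group, while Pklr (48.5 RPKM) is the lowest.

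CD44+CD51- library 2 lay nearer to the CD51+ libraries than the others of its group in the shares of Hk3 and Pklr. Its Hk3 share was 35.7%, against 7.38 and 11.5% in the other CD44+CD51- libraries, and its Pklr share was 24.8%, against 45.8 and 44.2%. Its summed neutrophil markers were 28915 RPKM, against 5936 and 10322 RPKM in libraries 1 and 3. Its summed B lineage markers, 756 RPKM, and erythroid markers, 13014 RPKM, were also the highest of the group, and these lay farther from the CD51+ libraries than those of libraries 1 and 3. Without it the difference in share between CD51+ and CD44+CD51- cells was 51.8 percentage points for Hk3 (43.1 with all libraries) and 41.0 points for Pkm (34.2 with all libraries). All 5 rises were still called without it.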

How the data were processed

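RNA of 6 bulk libraries, 3 of CD51+ and 3 of CD44+CD51- TNCs, was measured by sequencing. Per the labels' protocols, cells were sorted into lysis buffer, RNA was purified on RNeasy Plus Micro columns and sequenced from Nextera XT libraries. Per the file headers, the deposited values are RPKM, with a column for each library. GRCm38 and edgeR 3.16.5 were used, per the submitters' processing notes. For the aligner, read counter, annotation and gene lengths the entry is: not given in the sources used here.

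All 25955 entries were read as deposited, and the entry of highest mean stood for a repeated symbol. Genes at 1 RPKM or more in at least 3 libraries (11741) were tested as log2(RPKM + 1) with limma 3.58.1 (R 4.3.3, intensity trend, two-sided, Benjamini-Hochberg, threshold 0.05), without a replicate block. The fit was tested on simulated data. The pseudocount of 1 makes log2 changes of low genes smaller than the ratio of their means. Shares and sums were compared by exact permutation over libraries, with 0.1 as the smallest possible p. Whether the replicates are separate animals is not stated, so p-values reflect the spread of these samples alone, which may be technical. Deviations of same-numbered libraries from their group means correlated at 0.619, 0.286 and 0.516 across genes. The numbers were therefore taken to pair the samples, but only in the alternatives with a block. CD51+ library 2 correlated more with CD44+CD51- library 3 (0.324) than with library 2. CD51+ library 3 correlated with CD44+CD51- library 2 at 0.198, and the remaining combinations were negative. The numbers thus do not clearly tell libraries 2 and 3 apart. The pairing comes from the data alone.

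Library size was estimated as the divisor at which low values come to whole reads at GENCODE M21 exon lengths. Of values up to 20 reads, 89.0 to 91.1% per library were whole within 0.05 read. Estimated reads cover counting error only. Positions are from GENCODE M21 and start regions from RefSeq. Named genes were the 10 isozyme genes, up to 3 called genes with the largest rise and fall of each pathway list, and the 5 genes most alike to 1 member per enzyme. The members and lists were chosen with earlier results of these data known. Alternatives were another pseudocount, no filter, median-ratio scaling, quantile normalization, no trend, a replicate block and each library left out. For shares, added family members, log2 ratios and, chosen after seeing the data, main transcript lengths (longest APPRIS principal transcript) were tried.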

Additional observations from a re-analysis of the deposited data

How the results depend on the processing

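The counts of genes higher (2825) and lower (3484) over the whole table stayed within 1.5 times in all alternatives. With the replicate block they were 3265 and 4854, and the block changed no call of the 10 isozyme genes. With the block as paired differences, the shares and sums kept their direction, at a sign-flip p of 0.25, the smallest that 3 pairs can give. The split of calls moved with the scaling: 3165 genes were higher and 2534 lower under median-ratio scaling, which brought the median log2 change to -0.08, and 2419 and 4567 under quantile normalization, which brought it to -0.36.

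Of the isozyme genes, 5 were called lower. This count was 3 with no filter on low values, 2 under median-ratio scaling, and 2 to 5 without 1 library. The cause was not tested. The difference in Pfkl share, 1.69 percentage points, turned to -4.37 at main transcript lengths and ran from -3.31 to 7.10 without 1 library. Within same-numbered pairs it was 0.868, 4.001 and 0.195 points, higher in CD51+ in all 3. No other share changed direction in any alternative run. No sum did either, but the sums were not compared at main transcript lengths. Among genes that were not called, the log2 change turned sign under median-ratio scaling and under quantile normalization for Aldoa (0.14 and 0.14), Pgk1 (0.080 and 0.072) and Pdk3 (0.018 and 0.016), under median-ratio scaling for Eno3 (0.15) and Pdk2 (0.14), and under quantile normalization for Car9 (-0.21). Without 1 library it ran from -0.17 to 0.15 for Aldoa, -0.32 to 0.11 for Pgk1, -0.073 to 0.033 for Eno3, -0.12 to 0.10 for Pdk2 and -0.020 to 0.54 for Egln1. Added hexokinase genes gave no value, as they were not analysed here. The smallest value among the isozyme genes corresponds to about 97.8 reads, and the part of the uneven depth in the results was not tested. Gene lengths limit how shares between genes can be read.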
